A study of Mus musculus with 12 samples.

Results

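The collagen chain genes are the genes that encode the alpha chains of the collagens, and they were taken here as every symbol of the count table made of Col, a number, the letter a and a number. This rule found 43 of the 22317 symbols. It uses names only, and no measured value chose a member. RNA-seq of poly(A) RNA from 12 libraries of wild-type male BALB/c mice aged 8 weeks was analysed, in 4 groups of 3 libraries. Photothrombosis (PT), in which laser light on a dye in the blood closes the vessels of a small area, was applied to the skull or to the brain, and the tissue that was not itself irradiated was sampled. SB2 and SB4 are labelled as brain cortex taken 2 and 4 days after PT of the skull, and BS2 and BS6 as interparietal bone of the skull taken 2 and 6 days after PT of the brain. Uninjured tissue and the irradiated tissues themselves were not analysed here. The labels do not say whether the 3 libraries of a group came from separate animals, although the study's methods speak of biological replicates, so the p-values measure the spread between these libraries.

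Collagens are triple helices of 3 alpha chains, held together by long repeats rich in glycine and proline. Fibrillar collagens give bone, tendon and skin their tensile strength, fibril-associated collagens coat those fibrils, type IV collagen forms the sheet-like network of basement membranes around vessels and epithelia, and type VI collagen forms beaded filaments close to cells. Bone matrix is mostly type I collagen made by osteoblasts, whereas the brain parenchyma has hardly any fibrillar collagen and holds most of its collagen in the basement membranes of its vessels and in the meninges.

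The labelled tissue was checked against marker genes, given as summed CPM, that is counts relative to a TMM-scaled library size. The 6 neuron markers summed to 26.0 to 54.9 CPM in the libraries labelled SB2 (brain cortex) and to 7436 to 7579 CPM in those labelled BS2 (skull bone), against 7706 to 8102 CPM in SB4 and 37.8 to 115 CPM in BS6. The osteoblast and osteocyte markers, 7 of 8 of which were in the table, summed to 3322 to 5295 CPM in SB2 and 1194 to 2830 CPM in BS6, and to 20.2 to 22.1 CPM in SB4 and 20.3 to 25.2 CPM in BS2; none of these 7 was at 0 in all libraries of a group. The osteoclast marker Ocstamp was at 0 in SB4 and BS2. The libraries labelled SB2 and BS6 thus held bone transcripts and those labelled SB4 and BS2 held brain transcripts, and SB2 and BS2 go against their labels. Whether these 2 groups were exchanged in the labels or in the table was not tested, and the comparisons between libraries holding like transcripts are SB2 against BS6 and BS2 against SB4. SB2, SB4, BS2 and BS6 stand throughout for libraries so labelled, and in each comparison of days the day cannot be told apart from the tissue whose transcripts the libraries held. Total counts per library were 14126082 to 18972654, so that a gene with no reads could still stand at up to 0.163 to 0.218 CPM, the worth of 3 counts (counting error only). Replicate 2 of BS6 stood apart from replicates 1 and 3, with neutrophil-lineage markers at 15372 CPM against 923 and 2328 CPM, and results without it are given where a call, a count or the spread depends on it. Leaving it out moved the log2 fold changes of the 35 named members in BS6 against BS2 by -0.36 to 0.51.

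Collagen transcripts took a large share of the libraries with bone transcripts and hardly any of the others. All 43 members together made up 10.2%, 10.5% and 11.6% of the counts in the 3 SB2 libraries and 15.5%, 5.06% and 18.1% in BS6, against 0.0524%, 0.0478% and 0.0519% in SB4 and 0.0407%, 0.0541% and 0.0503% in BS2. The group means were 10.8% ± 0.73 (SD, n = 3), 12.9% ± 6.90, 0.0507% ± 0.0026 and 0.0484% ± 0.0069 in that order of groups, and 16.8% in BS6 without replicate 2. The ranges of SB2 and BS6 overlapped only through BS6 replicate 2, the other 2 BS6 libraries lying above every SB2 library, the ranges of SB4 and BS2 overlapped, and no library of one kind came near the other. The mixture also differed: Col1a1, Col1a2 and Col3a1 took 80.5% to 81.5% of the collagen counts in SB2 and 84.0% to 88.9% in BS6, but 1.33% to 2.88% in SB4 and 2.95% to 6.03% in BS2. In bulk tissue, fewer cells of a type and less RNA per cell cannot be told apart.

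**Figure D1:**
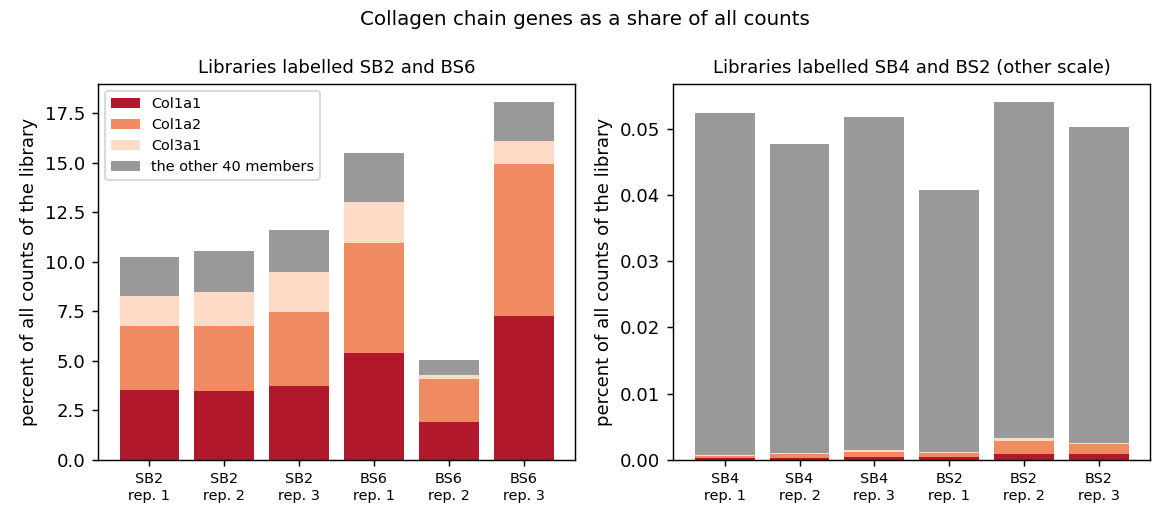
Percent of all counts of each library taken by Col1a1, Col1a2, Col3a1 and the other members together, with a separate vertical scale for each pair of groups. In SB2 and BS6 the 3 named chains fill at least 80.5% of each bar, and BS6 replicate 2 is the lowest of these 6 libraries at 5.06%, whereas in SB4 and BS2 no bar reaches above 0.0541% and the other members fill most of it.

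Which collagen chains differed between the days was asked first for the libraries labelled as brain. Of 41 members tested in SB4 against SB2 by edgeR's quasi-likelihood test, 30 were lower in SB4, 1 was higher and 10 were not called (calls were made at an adjusted p below 0.05 with a log2 fold change beyond 1 in size). Among all 17293 genes tested, 28.6% were lower and 27.8% were higher. The median log2 fold change of the members was -3.58, against -0.01 over all genes tested. All 11 fibrillar chains were lower, as were 5 of 8 fibril-associated chains, 4 of 6 beaded-filament chains, 2 of 5 basement membrane chains tested, both short-chain network chains tested, both multiplexins and 2 of 4 transmembrane chains. The only member called higher was Col25a1. For the libraries labelled as skull, BS6 was compared with BS2, and 35 of 41 members were higher in BS6, 2 were lower and 4 were not called, with a median of 4.10 against 0.02 over all genes. Here 29.0% of all 17311 genes tested were higher and 26.5% lower. Both comparisons set libraries with bone transcripts against libraries with brain transcripts, in opposite order of days.

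**Figure D2:**
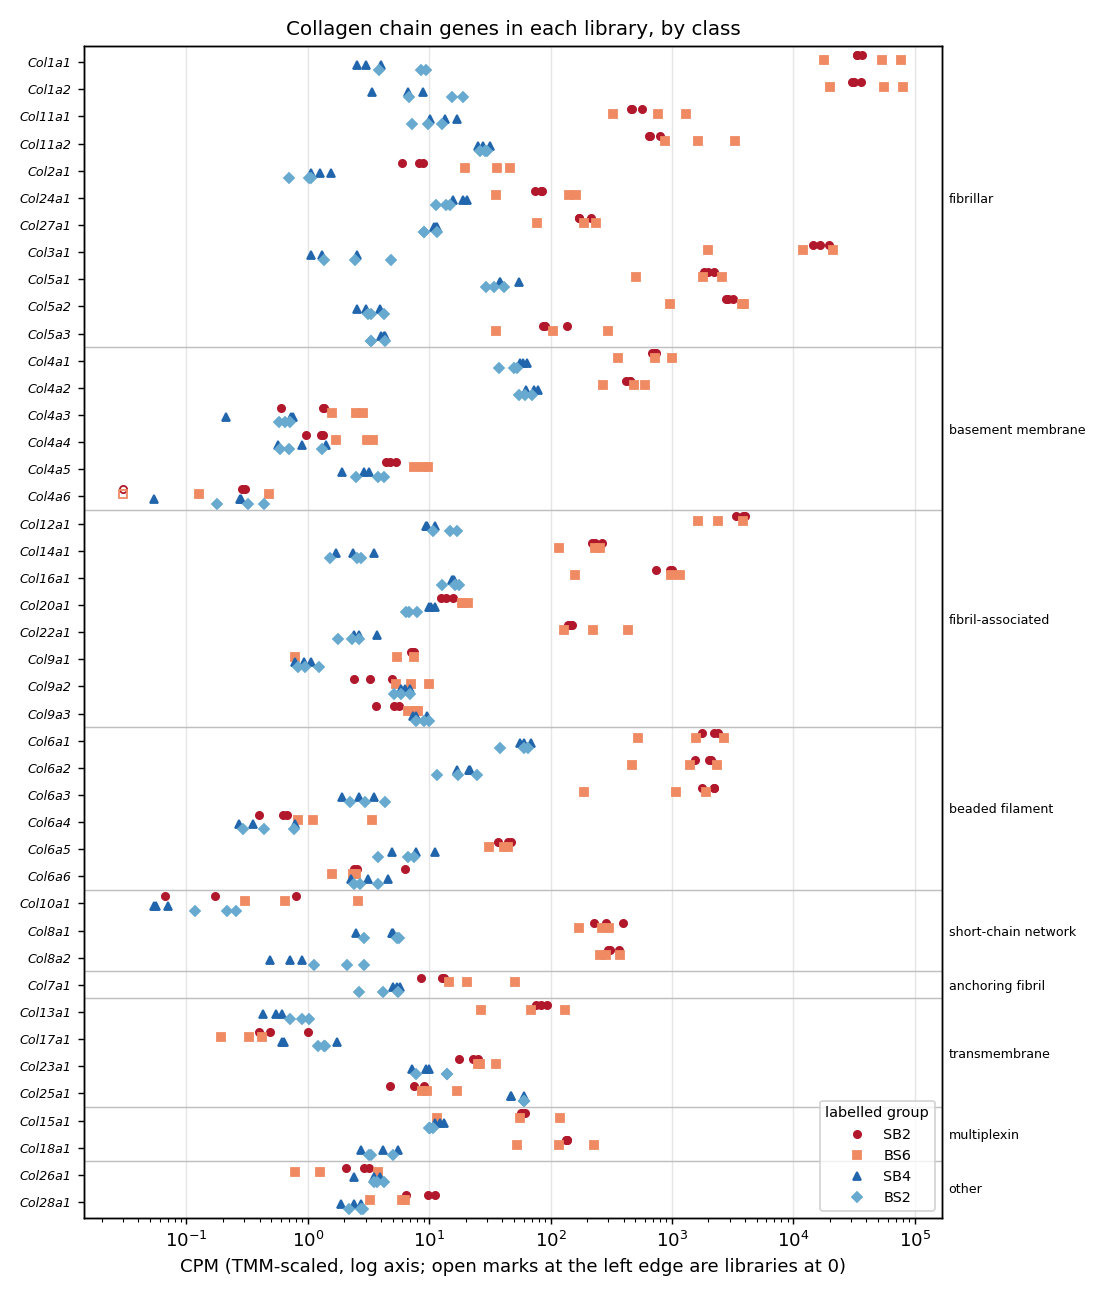
CPM of the 43 members in each of the 12 libraries on a log axis, with 1 mark per library, colours and shapes for the labelled groups, and lines between structural classes. For all fibrillar chains the SB2 and BS6 marks lie to the right of the SB4 and BS2 marks, Col25a1 shows the reverse order, and Col9a2, Col9a3, Col6a6 and Col26a1 have marks of all groups close together.

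Type I and type III collagen showed the widest gaps. Col1a1 (chr11:94936224-94953042, mm10), the alpha1 chain of the type I collagen of bone, was at 33762, 33530 and 36677 CPM in SB2 and at 54059, 18025 and 76624 CPM in BS6, but at 2.55, 2.99 and 4.01 CPM in SB4 and 3.89, 9.41 and 8.64 CPM in BS2. It was 10729-fold lower in SB4 than in SB2 (log2 fold change -13.39, standard error 0.20, adjusted p = 1.02e-12) and 6943-fold higher in BS6 than in BS2 (12.76, standard error 0.92, adjusted p = 4.33e-05). The range of BS6 took in that of SB2 only through replicate 2, SB4 and BS2 overlapped, and the 2 kinds of library lay far apart. Its partner Col1a2 (chr6:4504814-4541544), the alpha2 chain, was at 30645, 31663 and 36241 CPM in SB2 and 55503, 20130 and 80497 CPM in BS6. In SB4 it was at 3.40, 6.74 and 8.86 CPM and in BS2 at 6.78, 19 and 15.3 CPM. Its log2 fold changes were -12.31 (standard error 0.37, adjusted p = 1.69e-08) and 11.93 (0.91, adjusted p = 5.33e-05). Col3a1 (chr1:45311538-45349706), the single chain of the type III collagen of vessel walls and healing tissue, was at 14413, 16517 and 19711 CPM in SB2. In BS6 it was at 21114, 1993 and 12114 CPM, the widest spread of the 3 chains, with replicate 2 the lowest. SB4 held 15, 24 and 46 reads of it and BS2 23, 75 and 34. Its log2 fold changes were -13.29 (standard error 0.31, adjusted p = 3.97e-10) and 12.03 (1.29, adjusted p = 0.00023), the latter being 12.54 without BS6 replicate 2.

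Upstream sequence is shown for a few members, to set some with large falls in SB4 beside the member that rose there. These 4 windows hold no annotated exon, but they are not the only such windows. The Col13a1 window, also without an annotated exon and with TATAAA at -237, is not shown, although Col13a1 fell more (-7.28) than Col6a2 (-6.55). RefSeq (GRCm38.p6) gave windows for 34 of the 43 members, some with more than 1 start site, 37 windows in all. Each run covers the 250 bases before a RefSeq start site, 5′ to 3′ on the gene's strand, and capitals mark any match on either strand to TATAAA for a TATA box, to CCAAT for the box of that name, to GGGCGG for a GC box or to TGTGGT for a Runx core; the motifs do not overlap one another in these 4 windows. Col3a1 is at chr1:45311288-45311537 on the plus strand, and Col6a3 at chr1:90843972-90844221 and Col6a2 at chr10:76623631-76623880 are both on the minus strand. Col25a1 is at chr3:130180595-130180844 on the plus strand, at a start site inside the gene's GENCODE span. The run of bases just after this Col25a1 start site was not found in any GENCODE transcript of the gene. For Col3a1, Col6a3 and Col6a2 it was found, so the Col25a1 start site is less certain.
Col3a1: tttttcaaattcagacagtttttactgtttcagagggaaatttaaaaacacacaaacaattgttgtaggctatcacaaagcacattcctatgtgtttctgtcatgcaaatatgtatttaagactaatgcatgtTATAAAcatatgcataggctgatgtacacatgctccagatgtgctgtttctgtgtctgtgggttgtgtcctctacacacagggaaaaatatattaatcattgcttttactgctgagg
Col6a3: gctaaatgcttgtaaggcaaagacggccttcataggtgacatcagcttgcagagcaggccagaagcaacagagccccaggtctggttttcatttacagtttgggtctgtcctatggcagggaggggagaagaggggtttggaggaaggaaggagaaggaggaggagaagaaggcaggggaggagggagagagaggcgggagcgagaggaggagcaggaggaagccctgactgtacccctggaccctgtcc
Col6a2: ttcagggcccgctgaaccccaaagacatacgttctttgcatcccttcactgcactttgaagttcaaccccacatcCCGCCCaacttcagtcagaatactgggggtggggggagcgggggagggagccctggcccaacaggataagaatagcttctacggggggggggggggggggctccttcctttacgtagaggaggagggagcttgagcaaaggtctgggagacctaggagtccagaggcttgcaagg
Col25a1: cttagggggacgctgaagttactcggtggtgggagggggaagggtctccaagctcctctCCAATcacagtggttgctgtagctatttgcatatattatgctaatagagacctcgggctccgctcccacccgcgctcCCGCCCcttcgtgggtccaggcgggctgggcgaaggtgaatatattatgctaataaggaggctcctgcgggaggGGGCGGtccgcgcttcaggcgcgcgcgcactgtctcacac
The Col3a1 window holds 1 match, TATAAA at base -117. The Col6a3 window holds none of the 4 motifs. This Col6a2 window has GGGCGG at -175, while a window at another RefSeq start site of the gene, which overlaps an exon and is not shown, holds 3 matches to it, and Col25a1 has CCAAT at -191 and 2 matches to GGGCGG, the nearer to the start site at -40. Over all 37 member windows TATAAA was found in 5 (13.5%), CCAAT in 13 (35.1%), GGGCGG in 22 (59.5%) and TGTGGT in 3 (8.11%), where the shares of all 32851 windows of this length were 12.4%, 33.9%, 32.7% and 14%. A match is a run of letters and says nothing of binding.

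The other fibrillar chains were lower in SB4 and higher in BS6 by smaller factors. Type V collagen sits inside type I fibrils and limits their width. Col5a2 was at 2767, 2887 and 3207 CPM in SB2 and 3929, 971 and 3767 CPM in BS6, against 2.55, 2.99 and 3.95 CPM in SB4 and 3.13, 3.33 and 4.21 CPM in BS2, with log2 fold changes of -9.84 (standard error 0.16, adjusted p = 1.42e-12) and 9.70 (0.73, adjusted p = 4.94e-05). Its partner Col5a1 was at 1850, 1981 and 2225 CPM in SB2 and 2575, 509 and 1820 CPM in BS6, but kept 55.3, 38.3 and 38.1 CPM in SB4 and 29.4, 34.1 and 41.0 CPM in BS2. Its log2 fold changes were -5.52 (0.18) and 5.59 (0.65). Col5a3 went from 104 ± 27.8 CPM (SD, n = 3) in SB2 to 4.19 ± 0.19 CPM in SB4, and was at 3.64 ± 0.56 CPM in BS2 and 146 ± 135 CPM in BS6.

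Type XI collagen nucleates the thin fibrils of cartilage and is also made by bone cells. Col11a1 was at 498 ± 56.7 CPM in SB2 and 802 ± 497 CPM in BS6, and at 13.6 ± 3.41 CPM in SB4 and 9.95 ± 2.78 CPM in BS2 (log2 fold changes -5.20 and 6.36). Col11a2 was at 705 ± 82.2 CPM in SB2 and 1943 ± 1246 CPM in BS6, and at 28.2 CPM in both other groups (SD 3.08 in SB4 and 2.01 in BS2). Col2a1, the main chain of cartilage fibrils, was low everywhere, at 7.67 ± 1.55 CPM in SB2, 34.0 ± 13.5 CPM in BS6, 1.29 ± 0.25 CPM in SB4 and 0.928 ± 0.195 CPM in BS2. Chondrocyte markers summed to 142 to 159 CPM in SB2, 70.7 to 150 CPM in BS6, 24.8 to 33.3 CPM in SB4 and 26.6 to 31.1 CPM in BS2, and their part in the Col2a1 values was not tested. The 2 minor fibrillar chains were called in the same directions. Col24a1, a fibrillar chain known from developing bone, was at 81.1 ± 5.92 CPM in SB2 and 18.3 ± 2.42 CPM in SB4, 4.42-fold lower, and 8.73-fold higher in BS6 (114 ± 68.4 CPM) than in BS2 (13.3 ± 1.69 CPM). Col27a1, a cartilage fibrillar chain, was at 186 ± 25.4 CPM in SB2, 11.3 ± 0.26 CPM in SB4, 9.92 ± 1.45 CPM in BS2 and 167 ± 81.4 CPM in BS6.

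**Figure D3:**
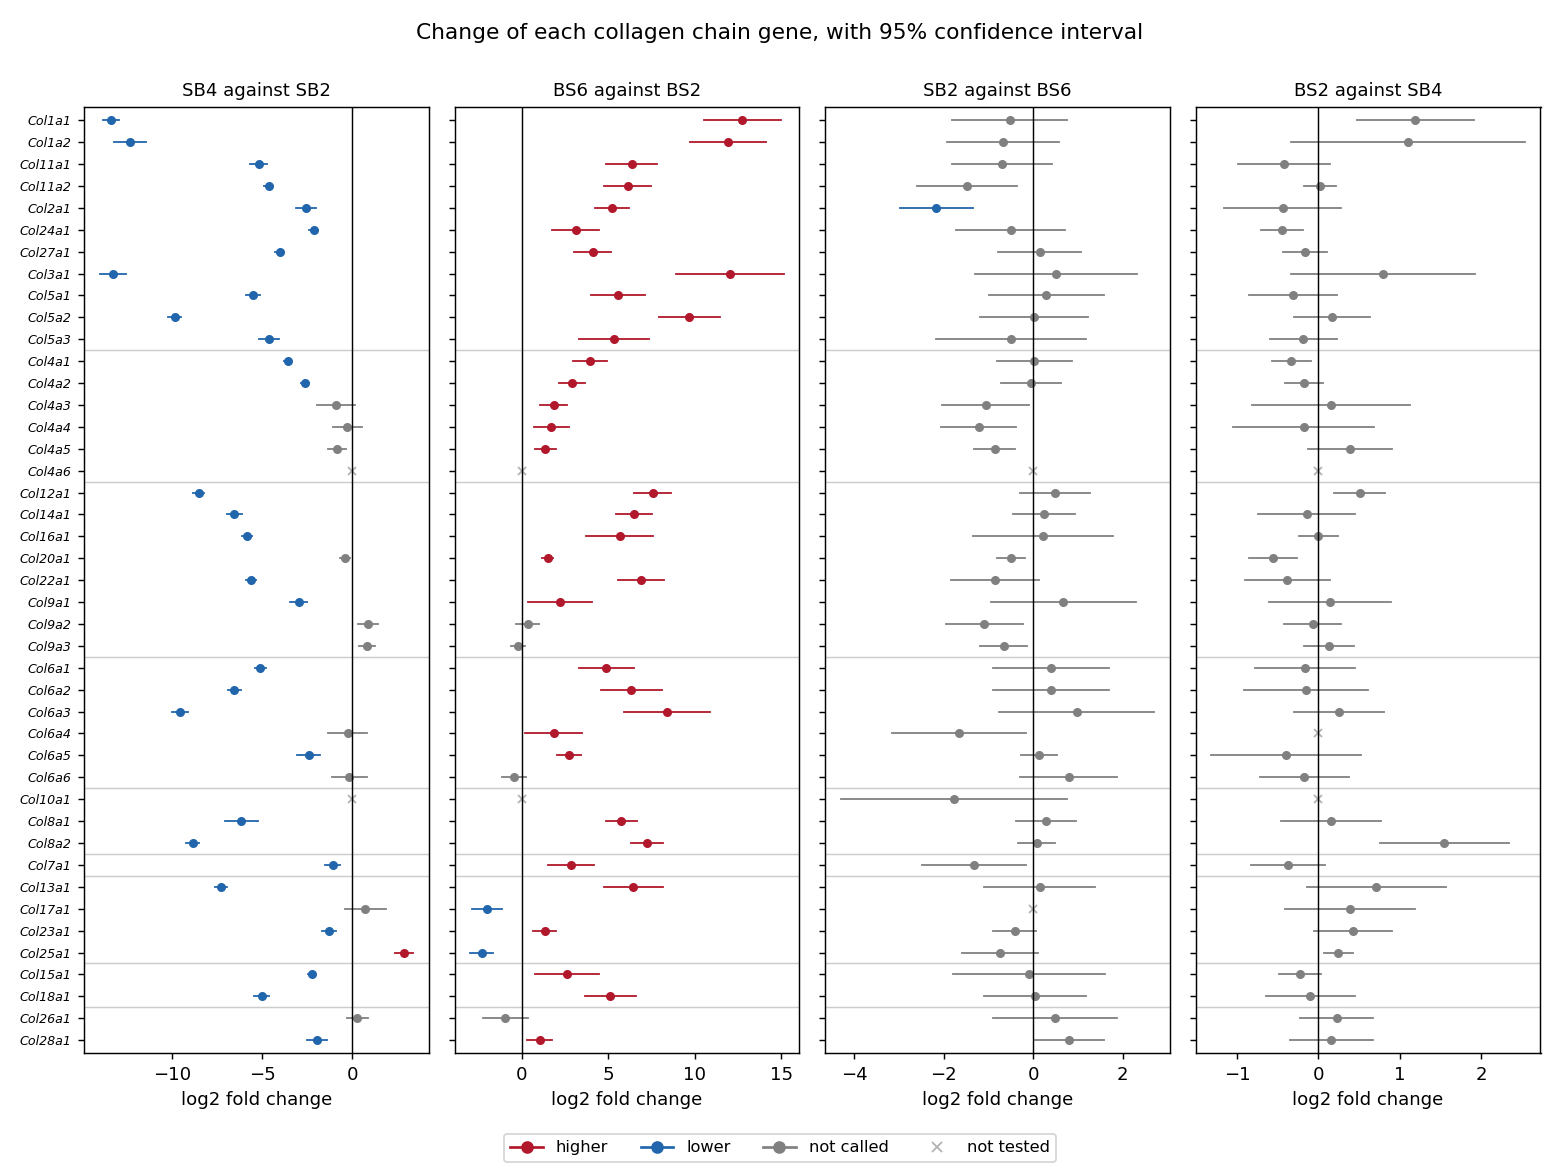
Log2 fold change of each member (dots) with its 95% confidence interval (lines) in 4 comparisons, each panel with its own horizontal scale, coloured by call. In the 2 left panels nearly all members lie on the same side of 0 and the intervals of Col1a1, Col1a2 and Col3a1 are wider in BS6 against BS2. In the 2 right panels, which compare groups holding like transcripts, only Col2a1 in SB2 against BS6 is called.

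Of the 4 classes with at least 5 members tested, the basement membrane chains had the smallest median log2 fold changes, -0.91 in SB4 against SB2 and 1.85 in BS6 against BS2. Col4a1 (chr8:11198423-11312826) and Col4a2 (chr8:11312805-11449287), the chains of the type IV collagen found in nearly every basement membrane, lie head to head on opposite strands with start sites 21 bp apart. Col4a1 was at 744, 684 and 730 CPM in SB2 and 1011, 361 and 730 CPM in BS6, and at 59.2, 56.3 and 64.1 CPM in SB4 and 37.8, 50.1 and 53.2 CPM in BS2. Col4a2 was at 454, 418 and 449 CPM in SB2 and 597, 271 and 491 CPM in BS6, against 72.4, 62.6 and 79.2 CPM in SB4 and 54.6, 70.9 and 61.2 CPM in BS2. The fall of Col4a1 in SB4 was 12-fold (log2 fold change -3.58, standard error 0.08, adjusted p = 1.08e-11) and that of Col4a2 6.15-fold (-2.62, standard error 0.10, adjusted p = 3.19e-10). In BS6 they rose 15.3-fold and 7.46-fold over BS2. Endothelial markers summed to 506 to 533 CPM in SB2 and 509 to 690 CPM in BS6, and to 74.9 to 93.1 CPM in SB4 and 52.8 to 80.7 CPM in BS2, and mural markers to 716 to 769, 614 to 1091, 183 to 228 and 164 to 213 CPM in the same order, and their part in these values was not tested.

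The remaining type IV chains replace the common pair in kidney and a few other membranes. Col4a5 was at 4.87 ± 0.47 CPM in SB2 and 2.66 ± 0.66 CPM in SB4 (log2 fold change -0.85, under the fold threshold) and at 8.75 ± 1.22 CPM in BS6 and 3.49 ± 0.91 CPM in BS2 (1.37, adjusted p = 0.00246). Col4a3 and Col4a4 averaged 0.566 to 2.74 CPM in all groups and were called only in BS6 against BS2, higher by 1.85 and 1.71 on the log2 scale. Col4a6 averaged 0.197 to 0.311 CPM and was too low to be tested in any of the 4 comparisons of groups.

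Fibril-associated chains split into those that followed the fibrils and those that did not. Col12a1, which coats type I fibrils in dense connective tissue, was at 3998, 3345 and 3840 CPM in SB2 and 3869, 1627 and 2395 CPM in BS6, against 9.58, 9.40 and 11.2 CPM in SB4 and 10.7, 16.9 and 15.0 CPM in BS2. It was 369-fold lower in SB4 than in SB2 (log2 fold change -8.53, standard error 0.14, adjusted p = 1.21e-12) and 190-fold higher in BS6 than in BS2 (7.57, standard error 0.45, adjusted p = 2.10e-05). Col14a1, a related fibril-coating chain, was 93.0-fold lower in SB4 (240 ± 24.3 to 2.51 ± 0.90 CPM) and 90.5-fold higher in BS6 than in BS2. Col16a1 was at 904 ± 142 CPM in SB2 and 15.7 ± 0.35 CPM in SB4, and Col22a1, found where muscle meets tendon, at 146 ± 5.37 CPM and 2.93 ± 0.72 CPM. In BS6 these 2 reached 772 ± 539 and 262 ± 155 CPM, from 15.6 ± 2.41 and 2.24 ± 0.43 CPM in BS2. Skeletal muscle markers summed to 1184, 1368 and 167 CPM in the 3 SB2 libraries, where Col22a1 stood at 139, 149 and 148 CPM. In BS6 these markers summed to 45.1, 36.4 and 286 CPM, with Col22a1 at 223, 130 and 433 CPM. The part of muscle in the Col22a1 values was not tested.

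Type IX collagen, a surface component of cartilage fibrils built from 3 different chains, did not move as a unit. Col9a1 was at 7.34 ± 0.20 CPM in SB2 and 0.921 ± 0.139 CPM in SB4 (log2 fold change -2.97, adjusted p = 1.29e-07), and at 7.56, 0.785 and 5.41 CPM in BS6 against 1.24, 0.832 and 0.944 CPM in BS2. Its call in BS6 against BS2 (2.20, standard error 0.77, adjusted p = 0.0373) was lost when any of 5 libraries was left out, with adjusted p-values of 0.0819 to 0.112, and without BS6 replicate 2 the value was 2.71 (adjusted p = 2.21e-05). Col9a2 was at 3.25, 4.93 and 2.38 CPM in SB2 and 6.31, 5.82 and 6.91 CPM in SB4, and Col9a3 at 5.13, 3.66 and 5.62 CPM and 7.38, 7.83 and 9.58 CPM. Both were above every SB2 library in every SB4 library, with log2 fold changes of 0.86 and 0.78 (adjusted p = 0.00736 and 0.0035) that did not reach the fold threshold. Among all genes tested, 85.5% likewise did not overlap between SB4 and SB2, in either direction. Without SB2 replicate 2 the value of Col9a2 was 1.17 and it was called. In BS6 against BS2 neither was called (0.35 and -0.21). Col9a3 shares up to 6.07% of its exon length with another gene, so its reads are less certain. Col20a1, another fibril-associated chain, was at 14 ± 1.59 CPM in SB2, 10.5 ± 0.61 CPM in SB4, 7.05 ± 0.78 CPM in BS2 and 19.5 ± 1.09 CPM in BS6, and was called only in BS6 against BS2 (1.5, adjusted p = 0.000113).

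Of the type VI chains 4 of 6 were lower in SB4 and 5 of 6 higher in BS6. Col6a1, Col6a2 and Col6a3 assemble into the common form of type VI collagen. Col6a1 was at 1754, 2241 and 2383 CPM in SB2 and 2676, 528 and 1578 CPM in BS6, and stayed at 69.2, 60.1 and 56.3 CPM in SB4 and 38.2, 65.8 and 60.0 CPM in BS2. Col6a2 was at 1548, 2017 and 2085 CPM in SB2 and 2373, 465 and 1421 CPM in BS6, and at 21.2, 21.8 and 17 CPM in SB4 and 11.6, 24.8 and 17.1 CPM in BS2. Col6a3 was at 1785, 2235 and 2227 CPM in SB2 and 1897, 188 and 1085 CPM in BS6, but at only 1.92, 3.48 and 2.62 CPM in SB4 and 2.24, 4.35 and 2.98 CPM in BS2. Libraries did not overlap for 85.5% of all genes tested in SB4 against SB2 and for 80.8% in BS6 against BS2. For Col6a1, Col6a2 and Col6a3 every SB4 and BS2 library lay below every SB2 and BS6 library. In SB4 against SB2 the log2 fold changes were -5.10 (standard error 0.15), -6.55 (0.16) and -9.57 (0.20), with adjusted p-values of 9.60e-11, 6.28e-11 and 2.16e-11. In BS6 against BS2 they were 4.90 (0.65), 6.35 (0.73) and 8.40 (1.02). Col6a5, a chain that can take the place of Col6a3, changed less, from 42.9 ± 5.12 CPM in SB2 to 7.97 ± 3.15 CPM in SB4 (-2.42, adjusted p = 0.000124), and stood at 6.00 ± 1.97 CPM in BS2 and 38.9 ± 7.11 CPM in BS6. Col6a4 and Col6a6 averaged 0.469 to 3.73 CPM in all groups, and the only call among them was Col6a4, higher in BS6 (1.87, adjusted p = 0.0438), which was lost when BS6 replicate 2 or any BS2 library was left out.

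Among the network and membrane-bound chains, most fell with the fibrils in SB4. Col8a1 and Col8a2 form the type VIII collagen of vessel walls and the cornea. Col8a2 was at 367, 311 and 298 CPM in SB2 and 288, 256 and 374 CPM in BS6 and at 0.709, 0.489 and 0.891 CPM in SB4 and 1.12, 2.88 and 2.11 CPM in BS2. Its log2 fold changes were -8.85 (standard error 0.16, adjusted p = 2.13e-12) and 7.27 (0.38, adjusted p = 1.42e-05). Col8a1 was at 303 ± 84.3 CPM in SB2, 4.15 ± 1.44 CPM in SB4, 4.66 ± 1.53 CPM in BS2 and 247 ± 67.9 CPM in BS6. Col10a1, the chain of hypertrophic cartilage, averaged 0.0603 to 1.19 CPM, reached 2.61 CPM in BS6 replicate 3 and of the 4 comparisons of groups passed edgeR's filter only in SB2 against BS6, where it was not called, while DESeq2 and edgeR without the filter called it higher in BS6 than in BS2, and the unfiltered fit also lower in SB4 than in SB2. Col7a1, which anchors epidermis to dermis, was at 11.5 ± 2.58 CPM in SB2 and 5.38 ± 0.37 CPM in SB4 (-1.10, adjusted p = 0.00022, and -0.98 without SB2 replicate 3, under the fold threshold) and 28.7 ± 19.4 CPM in BS6 against 4.12 ± 1.46 CPM in BS2. The epidermis markers, 2 of 4 of which were in the table (Krt5 and Krt14 were not), summed to at most 7.62 CPM in any library. Their part in the Col7a1 values was not tested.

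The transmembrane collagens held both directions. Col13a1, known from the neuromuscular junction and from bone, was at 76.0, 83.4 and 94.4 CPM in SB2 and 69.0, 26.5 and 131.9 CPM in BS6, and at 0.426, 0.544 and 0.613 CPM in SB4 and 0.708, 0.897 and 1.02 CPM in BS2 (log2 fold changes -7.28 and 6.47). Col25a1, a neuronal transmembrane collagen whose shed part is found in amyloid plaques, went the other way. It was at 9.11, 7.46 and 4.76 CPM in SB2 and 8.80, 17 and 9.61 CPM in BS6, and at 47.5, 47.3 and 60.3 CPM in SB4 and 60.5, 60.6 and 61.0 CPM in BS2. It was 7.28-fold higher in SB4 than in SB2 (2.86, standard error 0.21, adjusted p = 3.48e-06) and 4.99-fold lower in BS6 than in BS2 (-2.32, standard error 0.27, adjusted p = 0.000328). BS6 replicate 2, the BS6 library with the most Col25a1, also had the highest neuron marker sum of that group, 115 CPM against 37.8 and 47.5 CPM, and the part of the neuronal transcripts in this value was not tested. Col23a1 was at 22.0 ± 4.09 CPM in SB2, 8.88 ± 1.46 CPM in SB4, 11.9 ± 3.63 CPM in BS2 and 29.0 ± 5.40 CPM in BS6, called in both comparisons (-1.30 and 1.33). Col17a1, a part of the attachment plaques of epithelia, averaged 0.313 to 1.32 CPM and was lower in BS6 than in BS2 (-2.00, standard error 0.35, adjusted p = 0.00197) at counts close to the limit of detection.

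Both multiplexins, basement membrane collagens that carry endostatin-like ends, were lower in SB4. Col18a1 was at 138, 137 and 134 CPM in SB2 and 4.19, 2.72 and 5.57 CPM in SB4, 32.6-fold lower (log2 fold change -5.03, adjusted p = 1.67e-08), and at 3.30, 4.99 and 3.20 CPM in BS2 and 226, 52.5 and 117 CPM in BS6 (5.14, adjusted p = 0.000352). Col15a1 was at 58.6 ± 2.23 CPM in SB2 and 12.2 ± 1.09 CPM in SB4 (-2.26, adjusted p = 1.02e-09). In BS6 it was at 120, 11.6 and 55.7 CPM, so that replicate 2 stood at the level of the BS2 libraries (10.7, 10.1 and 10.1 CPM), and its call in BS6 against BS2 (2.63, standard error 0.76, adjusted p = 0.0186) was lost when any BS2 library was left out (adjusted p = 0.0594 to 0.0642). Without BS6 replicate 2 it was at 3.13 (adjusted p = 0.00074). Col28a1, a chain of peripheral nerve, was at 9.13 ± 2.42 CPM in SB2, 2.35 ± 0.44 CPM in SB4, 2.59 ± 0.35 CPM in BS2 and 5.19 ± 1.67 CPM in BS6. It was called lower in SB4 (-1.96, adjusted p = 1.81e-05) and higher in BS6 (1.04, adjusted p = 0.0185), the second call being lost when any of 4 libraries was left out. Col26a1 averaged 1.94 to 3.81 CPM and was not called in either comparison (0.28 and -0.94), although it was called in BS6 against BS2 without BS6 replicate 3.

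Whether the change over days differed between the labelled tissues was tested with a single contrast, fitted to the 12 libraries together, namely the change from SB2 to SB4 minus that from BS2 to BS6. Of 42 members tested, 36 had a negative difference and 3 a positive one at an adjusted p under 0.05, where 43.2% and 41.7% of all 18068 genes tested did so. The 3 with a positive difference were Col25a1 (5.17, standard error 0.39, adjusted p = 1.69e-07), Col17a1 (2.69, standard error 0.71, adjusted p = 0.00395) and Col9a3 (0.99, standard error 0.26, adjusted p = 0.00441). Not called were Col9a2 (0.49, adjusted p = 0.265), Col6a6 (0.26, adjusted p = 0.682) and Col26a1 (1.21, adjusted p = 0.0914).

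Groups that held like transcripts were also set against each other. Of 41 members tested in SB2 against BS6, 1 was called, Col2a1, lower in SB2 at 5.92, 8.86 and 8.24 CPM than in BS6 at 46.4, 19.6 and 36.0 CPM (log2 fold change -2.16, standard error 0.34, adjusted p = 0.0327). None was called higher in SB2 by edgeR or by DESeq2. At an unadjusted p under 0.05 there were 10 members lower and 1 higher. Over all 16329 genes tested 1.11% were called lower and 0.741% higher. These are shares of adjusted calls and set no background for the unadjusted counts. The median difference of the members was -0.05, against -0.02 over all genes. The call of Col2a1 was lost when any library other than BS6 replicate 2 was left out (log2 fold change -2.27 to -1.88, adjusted p = 0.0576 to 0.182), settings in which 0 to 34 of all genes were called, 0 without any SB2 library. Without BS6 replicate 2, 4 members were lower in SB2, Col2a1, Col1a2 (-1.06, adjusted p = 0.0132), Col11a1 (-1.07, adjusted p = 0.0286) and Col11a2 (-1.82, adjusted p = 0.0155), and DESeq2 called 5, Col2a1, Col7a1, Col9a2, Col4a4 and Col11a2. Of all genes tested, in either direction, 4.02% were called without that library and 6.74% by DESeq2. For the most abundant chains the intervals were wide: Col1a1 was at -0.53 (95% confidence interval -1.81 to 0.75), Col1a2 at -0.68 (-1.93 to 0.58) and Col3a1 at 0.51 (-1.29 to 2.32). The interval was narrowest, among members over 100 CPM, for Col8a2, at 0.07 (-0.34 to 0.49).

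Of 40 members tested in BS2 against SB4, edgeR's quasi-likelihood test called 0, while 4 were higher and 3 lower at an unadjusted p under 0.05, and DESeq2 called 1, Col1a1. Of all 16278 genes tested edgeR called 0.0614% higher and 0.0860% lower. These are shares of adjusted calls and set no background for the unadjusted counts. Col8a2 came closest, at 1.12, 2.88 and 2.11 CPM in BS2 and 0.709, 0.489 and 0.891 CPM in SB4 (log2 fold change 1.55, standard error 0.38, adjusted p = 0.0578). Without BS2 replicate 1 it was 1.85 with an adjusted p of 0.0108 and Col1a1 was also called (1.5, adjusted p = 0.000203), and without SB4 replicate 3 Col8a2 was at 1.78 with an adjusted p of 0.0481. Col1a1 was at 1.19 (standard error 0.32, adjusted p = 0.162) with all libraries. With a replicate block edgeR called Col8a2 (1.55, adjusted p = 0.0448), Col1a2 (1.13, adjusted p = 0.000634) and Col1a1 (1.19, adjusted p = 0.00434) higher in BS2. With no filter it called Col8a2 (1.54, adjusted p = 0.0169). Calls over all genes at these settings are not given here. Col12a1 was at 0.51 (adjusted p = 0.134), Col25a1 at 0.25 (0.208), Col20a1 at -0.56 (0.0614), Col24a1 at -0.44 (0.0997) and Col4a1 at -0.34 (0.233). Markers of leptomeningeal and perivascular fibroblasts summed to 11.1, 32.6 and 29.7 CPM in BS2 and 6.31, 12.9 and 13.8 CPM in SB4, and endothelial and mural markers were also lowest in BS2 replicate 1. That library was the lowest of its group for 15 of 20 members with a BS2 mean of 5 CPM or more (75.0%), against 36.4% of all 11750 genes at that level. The part of these cells in the collagen values was not tested.

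Levels of different chains were compared only as CPM per kilobase of exon (union of GENCODE M21 exons, mm10). In SB2 the order began with Col1a1 (5281 ± 267, SD, n = 3), Col1a2 (2644 ± 240) and Col3a1 (1720 ± 272), followed by Col6a1 (485 ± 75.3) and Col5a2 (308 ± 23.7). BS6 had the same first 5 by the means, with Col1a1 at 7553 ± 4503 and Col1a2 at 4188 ± 2441, neighbours whose spreads overlapped. Only the first 3 held their place in every BS6 library. Col11a2 (283 ± 181) lay within the spread of Col6a1 (364 ± 245) and Col5a2 (301 ± 173), and was above both in replicates 2 and 3. In SB4 the order began with Col6a1 (14.1 ± 1.51), Col4a2 (10.8 ± 1.26), Col4a1 (8.02 ± 0.53) and Col5a1 (5.17 ± 1.16), and the next, Col11a2 (4.11 ± 0.45) and Col25a1 (3.99 ± 0.58), did not differ from Col5a1 beyond their spread. BS2 began with Col6a1 (12.5 ± 3.32), Col4a2 (9.40 ± 1.24) and Col4a1 (6.30 ± 1.09), the first 2 within their spread, followed by Col25a1 (4.69 ± 0.02). Col1a1 was at rank 24 of 43 in SB4 and 15 in BS2, and Col3a1 at 34 and 32. Col25a1 was at rank 35 in SB2 and 34 in BS6. The lengths count every annotated exon, which for Col25a1 is 12947 bp against 2624 bp in its first listed transcript. By the first listed transcripts (4100 bp for Col6a1) Col25a1 would come before Col6a1 in SB4 and BS2. The place of Col25a1 in the order thus depends on the length used. The same holds for the first 2 chains in SB2 and BS6, since Col1a2 has 12426 bp of annotated exon against 5348 bp in its first listed transcript, and by those transcripts Col1a1 over Col1a2 was below 1, at 0.954 in SB2 and 0.848 in BS6.

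Chains that share a molecule were compared within each library, as ratios of counts per kilobase that no scaling of libraries can change. Col5a1 over Col5a2 was 0.755, 0.775 and 0.784 in SB2 and 0.740, 0.592 and 0.546 in BS6, but 24.4, 14.5 and 10.9 in SB4 and 10.6, 11.6 and 11 in BS2. Col5a1 thus exceeded Col5a2 in every library with brain transcripts and was below it in every library with bone transcripts. Col6a2 over Col6a1 was nearly constant in SB2 (0.466 ± 0.0066) and BS6 (0.468 ± 0.0052), BS6 replicate 2 included at 0.464, and lower in SB4 (0.170 ± 0.018) and BS2 (0.169 ± 0.026). By the first listed transcripts it was 0.920, 0.924, 0.336 and 0.334, so its size but not the difference between groups depends on the length used. Col6a3 over Col6a1 was 0.360 ± 0.016 in SB2 and 0.260, 0.130 and 0.252 in BS6, against 0.0161 ± 0.0056 in SB4 and 0.0213 ± 0.0030 in BS2. Col4a1 over Col4a2 stood at 1.45 ± 0.0060 in SB2 and 1.33 ± 0.16 in BS6, above 1, and at 0.747 ± 0.044 in SB4 and 0.670 ± 0.087 in BS2, below 1. Col8a2 over Col8a1 was 1.94 ± 0.39 in SB2, 2.21 ± 0.36 in BS6, 0.328 ± 0.164 in SB4 and 0.748 ± 0.125 in BS2. Col1a1 over Col1a2 was 2.00 ± 0.085 in SB2 and 1.78 ± 0.077 in BS6, against 1.04 ± 0.33 in SB4 and 1.03 ± 0.081 in BS2. By the first listed transcripts it was 0.954, 0.848, 0.495 and 0.491 in the same order, lower by one factor in all groups. For each of these 6 ratios the libraries of SB2 and BS6 did not overlap with those of SB4 and BS2, which also held for Col4a5 over Col4a1 (0.00664 to 0.0303 against 0.0359 to 0.0938) and Col6a5 over Col6a3 (0.0256 to 0.209 against 1.10 to 5.18). The other 4 ratios computed within a collagen type did overlap. Col5a3 over Col5a1 ran from 0.0564 to 0.143 in SB2 and BS6 and from 0.0896 to 0.157 in SB4 and BS2, the overlap coming from BS6 replicate 1 alone. Col11a2 over Col11a1 ran from 2.14 to 5.02 and from 3.04 to 7.30, Col9a1 over Col9a2 from 0.0484 to 1.93 and from 0.0728 to 0.147, an overlap made by BS6 replicate 2 alone since the next lowest value was 0.468, and Col9a3 over Col9a2 from 0.539 to 1.89 and from 0.939 to 1.26. The ratios are given as values without a test. How often ratios do not overlap was not computed for pairs of genes outside the collagens. Among all single genes tested, 85.5% did not overlap in SB4 against SB2 and 80.8% in BS6 against BS2.

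**Figure D4:**
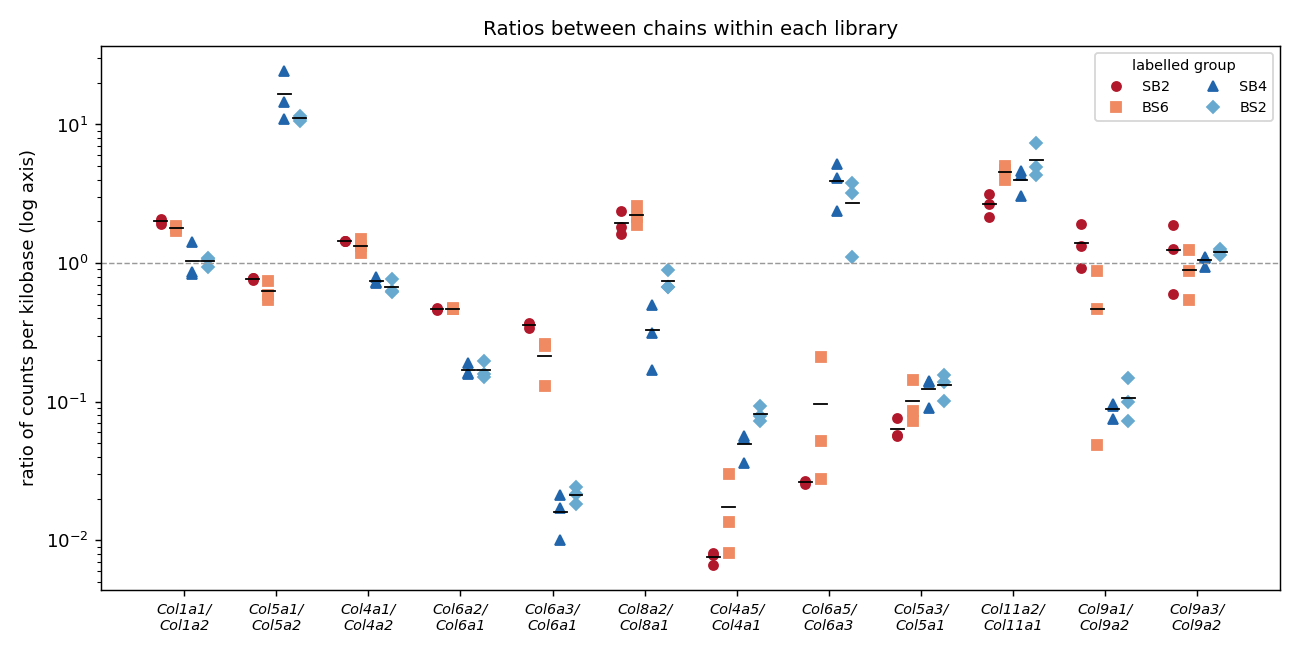
Ratio of counts per kilobase between chains of the same collagen type in each library (marks) with the group mean (bars) on a log axis. In the first 8 ratios from the left the SB2 and BS6 marks lie apart from those of SB4 and BS2, and in the 4 at the right, from Col5a3/Col5a1 to Col9a3/Col9a2, they overlap, for Col5a3/Col5a1 and Col9a1/Col9a2 through 1 BS6 library each.

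Within BS6 the libraries differed more than in the other groups, for the collagen genes and for all genes, and most collagen genes were lowest in replicate 2. Of 34 members with a BS6 mean of at least 5 CPM, replicate 2 was the lowest library in 28, the highest in 4 and between the others in 2. Among all 12295 genes at that level it was the lowest in 42.0% and the highest in 42.8%. The median ratio of replicate 2 to the mean of replicates 1 and 3 was 0.379 for the members and 0.998 for all of these genes. Col3a1 (0.120), Col6a3 (0.126), Col15a1 (0.132) and Col16a1 (0.146) were at the low end. Col25a1 (1.85), Col9a2 (1.60), Col23a1 (1.36) and Col4a5 (1.20) were highest in replicate 2. The median coefficient of variation of the members was 57.9% in BS6, against 11.4% over 32 members in SB2, 11.3% over 20 in SB4 and 16.2% over 20 in BS2. With replicates 1 and 3 of BS6 alone, a choice made after seeing the data, it was 22.8% over 35 members and 7.31% over all genes at that level. Over all genes that averaged 5 CPM or more in the group it was 16.0% in BS6, 7.67% in SB2, 5.95% in SB4 and 6.32% in BS2. Replicates 1 and 3 also differed from each other, with Col5a3 at 296 and 105 CPM and Col7a1 at 50.9 and 14.6 CPM. The osteoblast and osteocyte markers summed to 1714, 1194 and 2830 CPM in replicates 1, 2 and 3, the tendon and fibroblast markers to 6183, 2002 and 5947 CPM, the leptomeningeal and perivascular fibroblast markers to 130, 268 and 183 CPM, and the neutrophil-lineage markers to 923, 15372 and 2328 CPM, and their part in the collagen values was not tested. Without replicate 2, 36 of the 37 members called in BS6 against BS2 kept their call, the exception being Col6a4, and Col10a1 was called in addition.

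**Figure D5:**
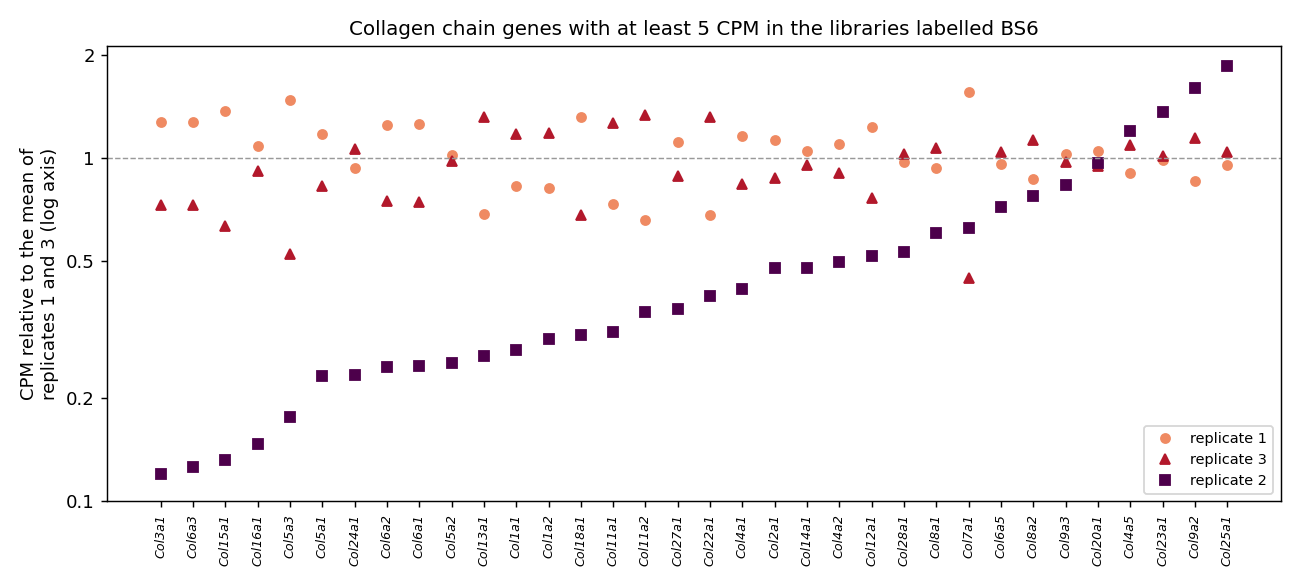
CPM of each BS6 library relative to the mean of replicates 1 and 3, on a log axis, for the 34 members with a BS6 mean of at least 5 CPM, ordered by replicate 2. Replicate 2 lies below 1 for all but 4 of the members, and from 0.120 for Col3a1 to 1.85 for Col25a1.

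The genes that fold, export, trim, crosslink and sense collagen were counted by lists, chosen with earlier results known. Of 48 such genes tested in SB4 against SB2, 37 were lower and 0 higher (median log2 fold change -3.87), and in BS6 against BS2 37 were higher and 0 lower (median 3.21). These directions stand beside the 28.6% and 29.0% of all genes called so. Among the genes for hydroxylation and folding 18 of 20 were lower in SB4. Serpinh1, the collagen-specific chaperone, was at 2131, 2155 and 2397 CPM in SB2 and 6.10, 7.45 and 7.07 CPM in SB4 (-8.33, standard error 0.12, adjusted p = 1.02e-12), and at 1478, 257 and 1136 CPM in BS6 against 5.66, 9.61 and 7.12 CPM in BS2. Like most collagen chains it was lowest in BS6 replicate 2. P4hb, a subunit of prolyl 4-hydroxylase with other substrates too, was 85.2 ± 1.81 CPM in SB4 and fell less (-3.97). Of the export genes only 2 of 5 were called in each comparison, Sec24d (-5.11 and 4.31) and Creb3l1 (-6.60 and 6.15), while the cargo receptor gene Mia3 was at -0.28 and 0.45. Propeptide removal had 5 of 7 called in each direction, among them Pcolce, an enhancer of the C-proteinase (-7.91 and 7.21), and crosslinking 5 of 6, among them Lox (-10.13 and 9.05). Of the receptors and uptake genes 7 of 10 were called, with the uptake receptor Mrc2 at -6.81 and 5.92, whereas the collagen receptor Ddr1 was at 0.63 and -0.53, under the fold threshold.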

How the data were processed

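The authors cleaned the reads with fastp and mapped them to mm10 with HISAT2 2.1.0, as the submitters' processing notes and the study's methods give, and deposited a table of unnormalized whole-number counts with 1 line for each gene symbol. How reads were assigned to genes (program, gene models, strand) is not given in the sources used here, nor whether the deposited counts precede the study's ComBat_seq step, so overlapping and antisense genes are uncertain. The 12 columns were matched to the labels by title, and 0 columns belonged to other samples.

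All genes entered fits of 2 groups each in edgeR 4.0.16 (R 4.3.3), with filterByExpr with a minimum count of 10, TMM factors, the robust quasi-likelihood test and Benjamini-Hochberg adjustment over all genes tested. The fit of 2 groups was tested on counts simulated from the SB4 libraries, with a small part of the genes changed. A spread like that of BS6, and changes as large or as many as those found here, were not simulated. Every p-value in the text is from the quasi-likelihood test unless another tool is named, and intervals are 95% confidence intervals. Calls required an adjusted p below 0.05 together with a log2 fold change beyond 1 in size. CPM use TMM factors over the 12 libraries. Exon lengths and coordinates are from GENCODE M21 (mm10), where all 43 members were found, and promoter windows from RefSeq (GRCm38.p6).

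Alternatives were DESeq2 1.42.0, other scalings and filters, a fit over 12 libraries, a replicate block and leaving out each library. Members that averaged 5 CPM or more in any group, and exceptions within their class, are named with values. The members and lists were chosen with earlier results of these data known. A marker or pathway gene without a match in the table was not analysed here.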

Additional observations from a re-analysis of the deposited data

Results flagged for a closer look

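The change over days differed between the labelled tissues for 39 collagen chain genes by the contrast over 12 libraries (edgeR, adjusted p under 0.05), of 42 tested, where 84.9% of all genes tested did so. The values below 0 are differences of log2 changes, brain-labelled minus skull-labelled, of genes lower on the later day in SB4 or higher on the later day in BS6. Among fibrillar chains they were Col1a1 -26.17, Col3a1 -25.34, Col1a2 -24.27, Col5a2 -19.56, Col11a1 -11.57, Col5a1 -11.11, Col11a2 -10.78, Col5a3 -9.99, Col27a1 -8.15, Col2a1 -7.80 and Col24a1 -5.28. Basement membrane chains and multiplexins gave Col18a1 -10.17, Col4a1 -7.53, Col4a2 -5.53, Col15a1 -4.91, Col4a3 -2.79, Col4a5 -2.24 and Col4a4 -2.01. For fibril-associated chains the differences were Col12a1 -16.11, Col14a1 -13.07, Col22a1 -12.53, Col16a1 -11.52, Col9a1 -5.19 and Col20a1 -1.93. Beaded-filament chains stood at Col6a3 -18.00, Col6a2 -12.91, Col6a1 -10.01, Col6a5 -5.17 and Col6a4 -2.14. The remaining negative values were Col8a2 -16.14, Col13a1 -13.77, Col8a1 -11.96, Col10a1 -4.99, Col7a1 -3.95, Col28a1 -3.00 and Col23a1 -2.64. Positive values were found for Col25a1 (5.17), Col17a1 (2.69) and Col9a3 (0.99). Since SB2 and BS6 held bone transcripts and SB4 and BS2 brain transcripts, the tissue of the transcripts and the day cannot be told apart in these values.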

How the results depend on the processing

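Over 140 results for single genes and 2096 comparisons with an alternative, 2017 kept direction and call, 20 lost the call, 18 gained one and 41 changed sign, all 41 in SB2 against BS6 or BS2 against SB4 and all of genes that were not called. In SB4 against SB2 the 1 gene called higher became 1 to 2 when single libraries were left out (2 without SB2 replicate 2, with Col9a2) and 3 with no minimum fold change. In BS6 against BS2 the 2 genes called lower became 1 with at least 10 counts in every library, a filter that removes Col17a1. In SB2 against BS6 the 1 gene called lower became 5 with DESeq2, 5 in one fit over 12 libraries and 0 to 4 when single libraries were left out, while the calls over all genes, 182 lower and 121 higher, became in both directions 1058, 1273 and 0 to 667. In BS2 against SB4 the 0 genes called higher became 1 with DESeq2, 1 with no filter (Col8a2) and 0 to 2 when single libraries were left out. Without Col1a1, Col1a2 and Col3a1 the members took 2.06% of the counts in SB2 and 1.76% in BS6. The BS6 mean includes replicate 2, where all members together took 5.06% against 15.5% and 18.1%, and the order of these 2 means turns on that library. With upper-quartile factors and with total counts alone the median log2 fold change of all genes in SB4 against SB2 stood at -0.145 and -0.105, against -0.01 with TMM, and no collagen call changed. Causes of these changes were not tested.

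The replicate numbers share only a number, with correlations of same-numbered deviations from -0.136 to 0.102. With a replicate block, Col28a1 lost its call in BS6 against BS2 (1.00), Col2a1 lost its call in SB2 against BS6, leaving 0 called lower, and in BS2 against SB4 3 genes were called higher (Col8a2, Col1a2 and Col1a1). How many of all genes were called with the block is not given here. Col4a2 and Col15a1 changed sign with the block in SB2 against BS6, to 0.0158 and 0.387.

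Sign changes under other settings were Col4a1 (-0.00688), Col5a2 (-0.0116) and Col18a1 (-0.00176) in SB2 against BS6 and Col16a1 (0.00358) in BS2 against SB4 in one fit over 12 libraries, and Col4a2 (0.0200) with total counts only. When single libraries were left out, log2 fold changes in SB2 against BS6 ran for Col27a1 from -0.195 to 0.471, Col8a2 from -0.0340 to 0.24, Col6a1 from -0.00986 to 0.99, Col6a2 from -0.0199 to 0.98, Col6a5 from -0.00646 to 0.24, Col4a1 from -0.28 to 0.38, Col4a2 from -0.31 to 0.19, Col5a1 from -0.13 to 0.77, Col5a2 from -0.39 to 0.30, Col5a3 from -0.96 to 0.54, Col18a1 from -0.35 to 0.66, Col15a1 from -0.59 to 0.78, Col16a1 from -0.265 to 0.636, Col13a1 from -0.26 to 0.81 and Col14a1 from -0.0316 to 0.44. In BS2 against SB4 they ran for Col8a1 from -0.0808 to 0.41, Col9a2 from -0.196 to 0.0260, Col9a1 from -0.0539 to 0.27, Col6a1 from -0.320 to 0.0381, Col6a2 from -0.468 to 0.0860, Col6a3 from -0.0363 to 0.48, Col18a1 from -0.35 to 0.18, Col16a1 from -0.0905 to 0.119, Col14a1 from -0.33 to 0.16 and Col11a2 from -0.0610 to 0.11. At these depths members averaging under 1 CPM, such as Col4a6 and Col10a1, rest on few reads, and differences between groups holding like transcripts have wide intervals in BS6.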
